A study of Mus musculus with 6 samples.

Results

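The 10 imprinted genes described here, which are abundant in growing tissue and expressed from a single parental allele, were followed in mouse articular chondrocytes, the cells of joint cartilage. They are *Dlk1*, *Meg3*, *Rian*, *H19*, *Peg3*, *Mest*, *Plagl1*, *Grb10*, *Zim1* and *Ndn*. They were taken by symbol from the gene table, and all 10 members were found among its 24532 genes. Each of the 10 had reads in every library, so none was lost to the filter that kept the 14223 genes with a read in each of the 6 libraries. The rule takes rows by their symbols, and the symbols were listed with earlier results of these data known.

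Chondrocytes of the knee ends of femur and tibia, taken from ICR mice at an age of 5 days, were grown in primary culture in 3% oxygen and compared after transfection with 50 nM of *Sephs1* siRNA (3 libraries) or of negative control siRNA (3 libraries). *Sephs1* encodes a selenophosphate synthetase paralog of the selenium pathway, and the comparison asks what its loss does to the transcriptome. Both groups received the same transfection reagent and hyaluronidase, with 12 h of transfection, 48 h in fresh medium and 2 rounds in all, so neither is an untreated culture. Each siRNA group was a single siRNA condition, the knockdown was partial, and poly-adenylated RNA was sequenced from whole cultures, in which fewer cells of a type and less RNA per cell cannot be told apart.

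Imprinted genes carry marks from the egg or the sperm, laid down at control regions, that silence the copy from either the mother or the father. Many of them act on growth before and shortly after birth, are abundant in embryonic mesenchyme and cartilage, and are switched down as tissues mature. They lie in clusters in which protein genes expressed from the paternal copy often neighbour long non-coding RNAs expressed from the maternal copy. RNA counts without allele information, as used here, give the sum over both copies.

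The libraries held between 58214060 and 80887889 reads assigned to genes. *Sephs1* itself had 6.73, 4.64 and 4.17 FPKM (fragments per kilobase of transcript, scaled to library depth by the authors) in *Sephs1* siRNA cultures 1, 2 and 3, against 9.004, 8.02 and 8.34 FPKM in control siRNA cultures. The groups did not overlap, and the log2 fold change was -0.76 ± 0.19 (SE), with an adjusted p of 0.392 in edgeR, 0.0400 with the replicate number as a block and 0.0170 in DESeq2. Same-numbered libraries deviated together (r between 0.235 and 0.47 across genes), so values with that block are given where they change a call. The cultures carried the markers of their label: 9 of the 10 listed chondrocyte markers were in the table and summed to between 18320 and 22504 FPKM with *Sephs1* siRNA and between 19076 and 24477 FPKM with control siRNA. Of the other lists, the 7 endothelial markers summed to at most 0.465 FPKM, with *Cdh5*, *Emcn* and *Cldn5* at no read in any library. The 7 macrophage and leukocyte markers summed to at most 7.91 FPKM, with no read for *Aif1*, and the muscle list to at most 7.20 FPKM, with no read for *Myf5* or *Ckm*. The 10 fibroblast and perichondrium markers were well represented, at 3781 to 4660 FPKM with *Sephs1* siRNA and 3831 to 5128 FPKM with control siRNA. Without the block edgeR called none of the markers of these lists, none passed an unadjusted p of 0.05, and DESeq2 called 0. With it the chondrocyte collagen *Col9a1* (log2 fold change -0.22, adjusted p = 0.0446) and the fibroblast markers *Col1a2* (-0.26, 0.0251) and *Postn* (-0.51, 0.0385) were called lower with *Sephs1* siRNA. Both lists also had members on the higher side. At an unadjusted p of 0.05 the block had 1 chondrocyte marker higher and 5 lower, of 9 measured. Of the 10 fibroblast and perichondrium markers it had 3 higher and 5 lower. Among all genes 24.3% passed that p with the block, and 1.65% were called.

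The 10 imprinted genes covered a wide span of levels, and no difference between the siRNA groups passed the test. *H19* and *Mest* were among the most abundant transcripts of the cells, *Plagl1*, *Peg3*, *Grb10* and *Rian* stood near or above 100 FPKM, and *Meg3*, *Ndn*, *Zim1* and *Dlk1* followed. None of the 10 passed an adjusted p of 0.05 in edgeR's quasi-likelihood test, where 0.0141% of all 14223 genes did (2 genes). None passed at an unadjusted p of 0.05 either, where 8.62% of all genes did, and DESeq2 and limma also called 0 of the 10. The median log2 fold change of the members was 0.02, with 6 above 0 and 4 below, and that of all genes tested was 0.01. In none of the 10 did the groups of 3 libraries stand apart without overlap, a pattern found in 14.9% of all genes. The members together took 1.56%, 1.51% and 1.48% of the reads with *Sephs1* siRNA and 1.56%, 1.56% and 1.39% with control siRNA.

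**Figure D1:**
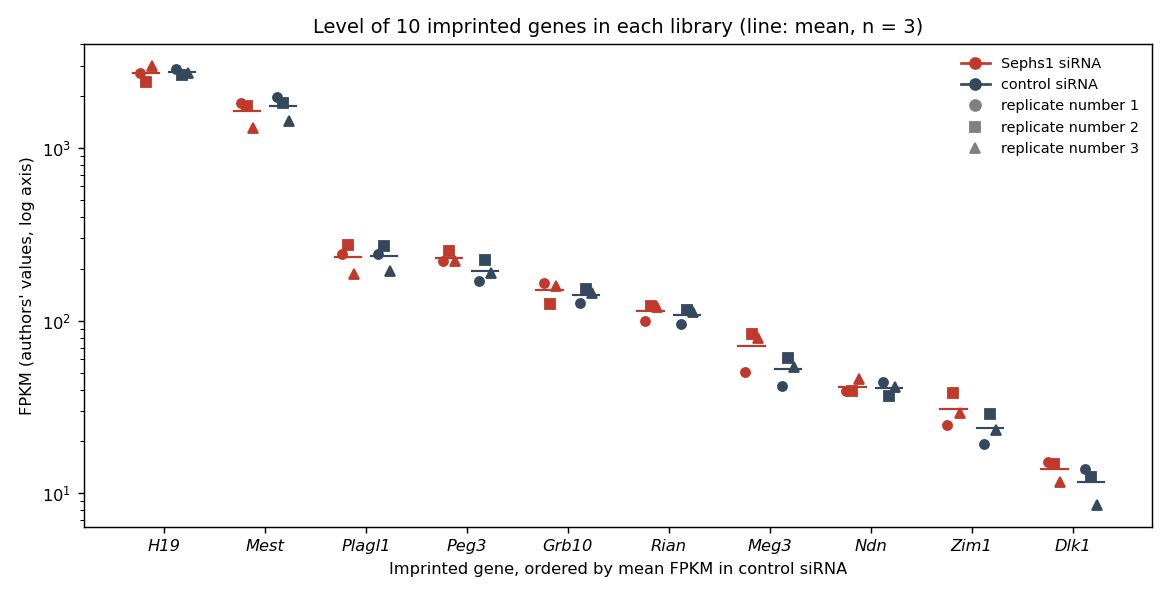
FPKM on a log axis for the 10 imprinted genes in the 3 *Sephs1* siRNA libraries (red, left of each pair) and the 3 control siRNA libraries (dark blue, right), with symbols for the replicate number and lines for the means. The levels run from *H19*, at 2408 to 2996 FPKM, to *Dlk1*, at 8.59 to 15.2 FPKM, and the 2 colours overlap for every gene.

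With the replicate number as a block, edgeR called 1 of the 10 members, *Zim1*, against 1.65% of all genes (234 genes). At an unadjusted p of 0.05 the block gave 6 of the 10, against 24.3% of all genes: *Dlk1*, *Meg3*, *Peg3* and *Zim1* were on the higher side with *Sephs1* siRNA, and *Mest* and *Plagl1* on the lower side. These are the 6 members that differed in the same direction on the CPM scale (read counts scaled to library size) within each of the 3 replicate numbers, as 47.7% of all genes did. For *Plagl1* this held in CPM only, since in FPKM number 1 was level and number 2 was on the higher side. *Rian* was mixed in CPM, but in FPKM it was higher with *Sephs1* siRNA in each number. The shared direction and the fit with the block rest on the same differences within numbers, so they are not separate results. Without number 1 or without number 2 the block called 0 members, and without number 3 it called 5 (*Meg3*, *H19*, *Peg3*, *Mest* and *Zim1*). Over all 14223 genes the block called 23, 87 and 1195 without numbers 1, 2 and 3. The log2 fold change of *Zim1* with the block was 0.30, 0.29 and 0.33 without numbers 1, 2 and 3, against 0.31 with all, and the adjusted p was 0.215, 0.122 and 0.0290 in edgeR.

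The first locus is a cluster on chromosome 12 that is named for its outer genes, *Dlk1* and *Dio3*. *Dlk1*, expressed from the paternal copy (chr12:109452485-109463336), encodes a membrane protein related to the Notch ligands that holds back adipocyte differentiation. It had 15.2, 14.7 and 11.7 FPKM in *Sephs1* siRNA cultures 1, 2 and 3, against 13.8, 12.4 and 8.59 FPKM in control siRNA cultures. Culture 3 was the lowest of its group on both sides, and the groups overlapped. The log2 fold change was 0.20 ± 0.21 (SE), with an adjusted p of 0.812 in edgeR, and the 95% interval ran between 0.816 and 1.61 on the fold scale. The control level placed *Dlk1* at rank 4611 of the table, the lowest rank of the 10 members. The 7 listed adipose lineage markers summed to 21.0, 19.9 and 20.1 FPKM with *Sephs1* siRNA, against 14.8, 17.1 and 18.96 FPKM with control siRNA. These FPKM sums did not overlap, while in CPM the groups overlapped for each of the 4 measured genes. The share of all genes without overlap, 14.9%, was counted in CPM, so it is no background for these sums. *Fabp4* was the largest part of each sum, and its own groups overlapped (log2 fold change 0.24 ± 0.14, SE). Of the list 4 genes were measured, with 3 log2 fold changes above 0 and 1 below (*Cebpa*, -0.18), and 0 passed an unadjusted p of 0.05 in edgeR. *Adipoq* had at most 14 reads and *Plin1* at most 3, both in control siRNA culture 3, and *Cfd* had no read in any library. The part of adipose lineage cells in the *Dlk1* level was not tested.

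*Meg3*, a long non-coding RNA expressed from the maternal copy of the same cluster (chr12:109540996-109571729), showed the highest log2 fold change of the 10. It had 50.7, 83.7 and 79.2 FPKM with *Sephs1* siRNA, against 41.8, 61.1 and 54.3 FPKM with control siRNA. Within every replicate number the *Sephs1* siRNA culture was the higher, by 0.24, 0.31 and 0.52 on the log2 CPM scale, but culture 1 with *Sephs1* siRNA stood below 2 of the control cultures. The fitted log2 fold change was 0.36 ± 0.20 (SE), with a 95% interval between 0.928 and 1.78 on the fold scale and an adjusted p of 0.672 in edgeR (0.0613 with the replicate block). Changes of 2-fold or more in either direction lay outside this interval and outside that of every other member.

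*Rian*, the next maternally expressed RNA along the cluster (chr12:109603945-109661716), is the host of a series of small nucleolar RNAs. It had 99.9, 122 and 120 FPKM with *Sephs1* siRNA, against 95.7, 115 and 113 FPKM with control siRNA. In CPM the values of each replicate number lay almost on top of each other, at log2 differences of -0.01, 0.03 and 0.04. In FPKM the *Sephs1* siRNA culture was the higher in each number. The fitted value was 0.02 ± 0.10 (adjusted p = 0.967 in edgeR). *Mirg*, the miRNA host transcript further along, had a log2 fold change of -0.06 ± 0.11 (SE). The ratio of *Meg3* to *Rian* in FPKM was 0.507, 0.686 and 0.659 with *Sephs1* siRNA, against 0.437, 0.530 and 0.481 with control siRNA. It was higher in each of the 3 replicate numbers, while the groups overlapped and the 2-sided exact permutation test gave p = 0.2 (0.8 adjusted over the 4 ratios compared, smallest possible p 0.1). These ratios were chosen after the values had been seen.

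The promoter of *Meg3* is shown because *Meg3* had the highest log2 fold change, and those of *Dlk1*, *Peg3* and *Zim1* because they too were higher in CPM within each replicate number. RefSeq has 2 starts for *Meg3*, and the upstream one is printed. Each window holds 250 bases before the start and 50 after it, 5′ to 3′ on the strand of the gene, from RefSeq on GRCm38.p6. Capitals mark the palindromic cAMP response element TGACGTCA and the TATA motif TATAAA, both searched on both strands and chosen with the sequences in view. The starts used for *Dlk1*, *Peg3* and *Zim1* lie inside the gene spans given for them in this text. The *Dlk1* window lies wholly within its span, so the bases upstream of that span were not searched. In the *Meg3* window the reverse and forward TATA motifs overlap and print as 1 run of capitals.
*Meg3* promoter (chr12:109540746-109541045, plus strand): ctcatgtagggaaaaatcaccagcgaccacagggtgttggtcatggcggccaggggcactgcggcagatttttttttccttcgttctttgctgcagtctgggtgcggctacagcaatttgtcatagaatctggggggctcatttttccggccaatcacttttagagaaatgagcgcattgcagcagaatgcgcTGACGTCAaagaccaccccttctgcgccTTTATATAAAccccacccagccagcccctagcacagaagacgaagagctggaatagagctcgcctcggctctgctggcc
*Dlk1* promoter (chr12:109452573-109452872, plus strand): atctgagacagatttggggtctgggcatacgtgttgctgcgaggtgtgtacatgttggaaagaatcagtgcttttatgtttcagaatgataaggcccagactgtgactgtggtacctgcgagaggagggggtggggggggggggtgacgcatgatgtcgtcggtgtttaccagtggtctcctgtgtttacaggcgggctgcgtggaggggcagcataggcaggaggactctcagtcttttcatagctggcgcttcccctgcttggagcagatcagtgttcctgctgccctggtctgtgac
*Peg3* promoter (chr7:6730370-6730669, minus strand): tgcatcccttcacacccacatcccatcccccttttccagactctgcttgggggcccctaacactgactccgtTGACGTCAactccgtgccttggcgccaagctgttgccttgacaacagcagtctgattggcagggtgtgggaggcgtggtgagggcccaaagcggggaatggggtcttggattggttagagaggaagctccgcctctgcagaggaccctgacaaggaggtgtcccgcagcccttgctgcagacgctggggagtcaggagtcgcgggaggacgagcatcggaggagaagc
*Zim1* promoter (chr7:6696383-6696682, minus strand): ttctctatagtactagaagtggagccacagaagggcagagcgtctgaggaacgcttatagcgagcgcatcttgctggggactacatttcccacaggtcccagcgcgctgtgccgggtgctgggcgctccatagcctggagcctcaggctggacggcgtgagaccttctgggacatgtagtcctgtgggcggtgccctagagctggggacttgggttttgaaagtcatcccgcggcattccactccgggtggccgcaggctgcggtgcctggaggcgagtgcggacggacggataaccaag
The cAMP response element begins 57 bases before the start in *Meg3* and 178 bases before it in *Peg3*, and 1.79% of the 32851 windows of this length hold it. TATAAA begins 25 bases before the start in *Meg3* and is held by 13.6% of all windows. No other member had either motif in its windows, of which 13 were found for 9 members. The printed windows of *Meg3* and *Peg3* hold 13 CpG pairs each, that of *Zim1* holds 20 and that of *Dlk1* holds 9, against a median of 7 over all windows. The window at the other *Meg3* start (chr12:109545148-109545447) holds 1 CpG pair and neither motif. A match is a description of these letters, and binding was not measured.

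Among the listed neighbours at the members' loci, 15 of 19 had reads in every library. By an unadjusted p of 0.05 in edgeR 1 of the 15 was higher and none was lower, against 8.62% of all genes. None passed after adjustment. The gene that passed was *Dio3*, at the far end of the *Dlk1* cluster, which encodes the deiodinase that inactivates thyroid hormone and is itself a selenoprotein. Its CPM was 3.63, 2.83 and 2.75 with *Sephs1* siRNA, against 1.95, 1.71 and 1.82 with control siRNA. The groups did not overlap, and the log2 fold change was 0.75 ± 0.18 (SE), with an adjusted p of 0.392 in edgeR, 0.0762 with the replicate block and 0.0292 in DESeq2. So within this cluster the order of log2 fold changes was *Dio3* at 0.75, *Meg3* at 0.36, *Dlk1* at 0.20, *Rian* at 0.02, *Mirg* at -0.06 and *Begain* at -0.15, and the intervals of the 3 members overlapped.

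The table also lists 61 miRNA genes between *Dlk1* and *Dio3*, which the poly-adenylated library measures only as fragments of longer transcripts. Of these, 20 had no read in any library, and all 61 together had between 65 and 118 reads per library. *Mir410* had 1, 18 and 30 reads with *Sephs1* siRNA, against 1 read in each control siRNA library. *Mir675*, which lies in *H19*, had 1 read in every library. Mature miRNA levels are therefore not measured for these genes.

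*H19*, expressed from the maternal copy on chromosome 7 (chr7:142575530-142578146), is a long non-coding RNA that is the primary transcript of a miRNA and shares its enhancers with *Igf2*. It was the most abundant member, at rank 6 of the whole table in control siRNA cultures. It had 2732, 2408 and 2996 FPKM with *Sephs1* siRNA, against 2866, 2657 and 2719 FPKM with control siRNA. The *Sephs1* siRNA cultures held both the highest and the lowest of the 6 values, and the log2 fold change was -0.08 ± 0.11 (SE; adjusted p = 0.861 in edgeR), with a 95% interval between 0.788 and 1.14 on the fold scale. The mature arms of its miRNA are shown, with the seed (bases 2 to 8) in capitals, since *H19* is the transcript from which they are cut. They come from RefSeq on GRCm38.p6.
mmu-miR-675-5p (chr7:142577112-142577133, minus strand): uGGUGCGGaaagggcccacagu
mmu-miR-675-3p (chr7:142577078-142577099, minus strand): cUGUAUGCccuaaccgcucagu
The seeds of the 2 arms differ, and the level of neither was measured in these libraries.

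*Igf2*, the paternally expressed growth factor next to *H19*, was at a similar level. It had 2194, 1974 and 2174 FPKM with *Sephs1* siRNA, against 2515, 2060 and 1756 FPKM with control siRNA, and its log2 fold change was -0.03 ± 0.16 (SE; adjusted p = 0.962 in edgeR). The ratio of *H19* to *Igf2* was 1.25, 1.22 and 1.38 with *Sephs1* siRNA, against 1.14, 1.29 and 1.55 with control siRNA. These ratios overlapped (2-sided exact permutation p = 0.8), with a lower ratio under *Sephs1* siRNA in numbers 2 and 3 and a higher one in number 1.

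*Peg3* and *Zim1* are neighbouring zinc finger genes on chromosome 7 with opposite parental expression. *Peg3* (paternal, chr7:6703892-6730462), whose product acts in maternal behaviour and body growth in mice, had 221, 254 and 222 FPKM with *Sephs1* siRNA, against 169, 224 and 190 FPKM with control siRNA. Only control culture 2, at 224 FPKM, entered the range of the *Sephs1* siRNA cultures. Its log2 fold change was 0.20 ± 0.13 (SE), with a 95% interval between 0.935 and 1.41 on the fold scale and an adjusted p of 0.704 in edgeR.

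*Zim1* (maternal, chr7:6674444-6696540) had 24.97, 38.4 and 29.2 FPKM with *Sephs1* siRNA, against 19.2, 28.8 and 23.3 FPKM with control siRNA. In both groups culture 1 was the lowest and culture 2 the highest. The log2 differences within the replicate numbers were 0.31, 0.36 and 0.27, the narrowest spread among the 4 members that were higher in CPM in each number. Without the block the log2 fold change was 0.32 ± 0.20 (SE; adjusted p = 0.706 in edgeR), and with it 0.31 ± 0.05 (adjusted p = 0.0446). The lowest read count of any member in any library was 2763 (*Dlk1* in control siRNA culture 3). The ratio of *Zim1* to *Peg3* was 0.113, 0.151 and 0.132 with *Sephs1* siRNA, against 0.114, 0.129 and 0.123 with control siRNA. The groups overlapped (2-sided exact permutation p = 0.5). With a smallest possible p of 0.1, that test could not reach 0.05.

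*Mest* (paternal, chr6:30733506-30748466), which encodes a membrane enzyme of the hydrolase fold and marks mesoderm, was the second most abundant member, at rank 12. It had 1831, 1750 and 1316 FPKM with *Sephs1* siRNA, against 1981, 1833 and 1428 FPKM with control siRNA. Culture 3 stood below the others in both groups. Within each replicate number *Mest* was lower with *Sephs1* siRNA, by -0.18, -0.12 and -0.17 on the log2 CPM scale. The fitted log2 fold change was -0.16 ± 0.19 (SE), with an adjusted p of 0.837 in edgeR (0.0561 with the replicate block). *H19* and *Mest* together took 1.11%, 1.02% and 1.05% of all reads with *Sephs1* siRNA and 1.18%, 1.09% and 1.00% with control siRNA.

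*Plagl1* (paternal, chr10:13090832-13131694) encodes a zinc finger factor that binds and regulates other imprinted genes. It had 244, 276 and 186 FPKM with *Sephs1* siRNA, against 244, 272 and 195 FPKM with control siRNA. The log2 fold change was -0.07 ± 0.20 (SE; adjusted p = 0.932 in edgeR), far smaller than the distance of culture 3 from the others in both groups. Of 7 imprinted genes listed as belonging to its network (*Igf2*, *Igf2r*, *Cdkn1c*, *Dcn*, *Gnas*, *Gatm* and *Slc38a4*), all were measured and none passed an unadjusted p of 0.05 in edgeR. DESeq2 called 0 of the 7. With the replicate block an unadjusted p took in 1 on the higher side, which was also called, and 1 on the lower. Of all genes the block took in 24.3% at an unadjusted p and called 1.65%.

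The gene called was *Dcn*, which encodes the small cartilage proteoglycan decorin. Its FPKM was 998, 964 and 817 with *Sephs1* siRNA, against 787, 774 and 698 with control siRNA. These values stood apart in FPKM only. In CPM, the scale of the test, *Sephs1* siRNA culture 3 (1493.5) lay below control siRNA cultures 1 (1559.2) and 2 (1518.6). The log2 fold change was 0.24 (adjusted p = 0.638 in edgeR, 0.0392 with the block).

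*Grb10* (chr11:11930499-12037428), maternally expressed outside the nervous system, encodes an adaptor that binds the insulin and IGF receptors and dampens their signal. It had 167, 125 and 159 FPKM with *Sephs1* siRNA, against 126, 152 and 146 FPKM with control siRNA. The replicate numbers disagreed in direction, at 0.33, -0.35 and 0.08 on the log2 CPM scale, and the log2 fold change was 0.03 ± 0.13 (SE; adjusted p = 0.968 in edgeR). Of 13 other genes of insulin and IGF signalling, 12 were measured. By an unadjusted p of 0.05 in edgeR 1 was higher and none was lower, against 8.62% of all genes. None passed after adjustment, while DESeq2 called 1, against 215 of all 14223 genes. That gene was *Irs2*, an adaptor below both receptors, at 22.5, 21.6 and 23.2 CPM with *Sephs1* siRNA, against 17.1, 16.4 and 18.3 CPM with control siRNA. Its groups did not overlap, and its log2 fold change was 0.38 ± 0.08 (SE), with an adjusted p of 0.385 in edgeR, 0.0495 with the block and 0.0170 in DESeq2.

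*Ndn* (paternal, chr7:62348277-62349928) encodes necdin, a growth suppressor of the MAGE family in the region that corresponds to the human Prader-Willi locus. It had 39.0, 39.5 and 45.8 FPKM with *Sephs1* siRNA, against 44.0, 36.9 and 41.4 FPKM with control siRNA. The sign of its difference depended on the scale: the group means in FPKM were 41.4 ± 3.82 with *Sephs1* siRNA and 40.8 ± 3.60 with control siRNA (SD, n = 3 each), while the log2 fold change from counts was -0.04 ± 0.09 (SE; adjusted p = 0.921 in edgeR). Its interval was the narrowest of the 10, between 0.837 and 1.13 on the fold scale. Over all genes too the median log2 fold change was higher from FPKM. It was 0.041 and 0.062 in limma with pseudocounts of 1 and 0.1, against 0.009 from counts in edgeR.

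**Figure D2:**
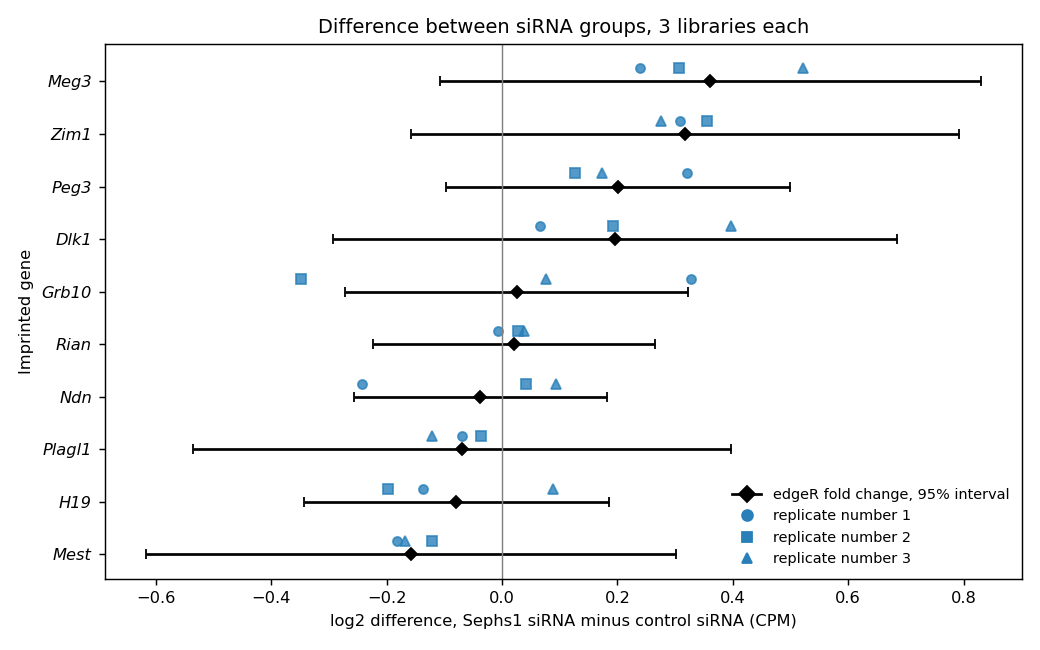
Log2 difference in CPM, *Sephs1* siRNA minus control siRNA, for the 10 imprinted genes: black diamonds and bars give the edgeR fold change with its 95% interval, and blue symbols the difference within each replicate number. All 10 intervals span 0, and *Meg3*, *Zim1*, *Peg3* and *Dlk1* lie above 0 and *Mest* and *Plagl1* below 0 in each of the 3 numbers.

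By parental origin, the 5 maternally expressed members (*Meg3*, *Rian*, *H19*, *Grb10* and *Zim1*) had 4 log2 fold changes above 0 and 1 below, with a median of 0.03. The 5 paternally expressed members (*Dlk1*, *Peg3*, *Mest*, *Plagl1* and *Ndn*) had 2 above and 3 below, with a median of -0.04. The 4 members that were higher in CPM in each replicate number split evenly, with *Meg3* and *Zim1* maternal and *Dlk1* and *Peg3* paternal. Both that were lower in CPM in each number, *Mest* and *Plagl1*, are paternal, and *Plagl1* was not lower in each number in FPKM.

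In order of their control level, the length-scaled values overlapped in 3 of the 9 pairs of neighbouring members. *H19* (2408 to 2996 FPKM over the 6 libraries) stood above *Mest* (1316 to 1981 FPKM), and both stood far above the rest. *Plagl1* (186 to 276 FPKM) and *Peg3* (169 to 254 FPKM) overlapped, and *Grb10* (125 to 167 FPKM) lay just below *Peg3* without overlap. *Rian* (95.7 to 122 FPKM) lay below *Grb10*, and *Meg3* (41.8 to 83.7 FPKM) lay below *Rian*. *Meg3* and *Ndn* (36.9 to 45.8 FPKM) overlapped, as did *Ndn* and *Zim1* (19.2 to 38.4 FPKM), while *Dlk1* (8.59 to 15.2 FPKM) stood below all others.

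The level of the imprinted genes also differed between replicate numbers. For all 10 members the range over the 3 numbers exceeded the size of the mean siRNA difference, as it did for 78.5% of all genes. A range over 3 values was set against 1 mean difference, so the comparison does not rank the 2 sources of spread. For *Grb10* the range was 0.096 on the log2 scale, while the differences within the numbers were 0.33, -0.35 and 0.08. *Zim1*, *Meg3*, *Plagl1*, *Dlk1* and *Mest* had the widest ranges, at 1.51-, 1.51-, 1.496-, 1.495- and 1.45-fold, and *Grb10* the narrowest, at 1.07-fold. In 6 of the 10 members the same number was lowest in both groups, and in 7 the same number was highest, against 57.8% and 55% of all genes.

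*Dlk1*, *Mest* and *Plagl1* were lowest in number 3 in both groups, and *Meg3*, *Rian* and *Zim1* were lowest in number 1 and highest in number 2 in both groups. *H19*, *Peg3*, *Grb10* and *Ndn* had a different lowest number in each group. By the mean of the groups 3 of the 10 members were lowest in number 3, against 37.9% of all genes, and 4 were lowest in number 1, against 32.3% of all genes, so these counts are near the background. In number 3, 8 of 9 measured chondrocyte markers were also at their lowest in both groups, and 8 of 10 fibroblast and perichondrium markers at their highest. The summed chondrocyte list was 21274, 22504 and 18320 FPKM in *Sephs1* siRNA cultures 1, 2 and 3, against 22421, 24477 and 19076 FPKM in control siRNA cultures. The summed fibroblast list was 4148, 3781 and 4660 FPKM with *Sephs1* siRNA, against 4363, 3831 and 5128 FPKM with control siRNA. The part of these marker differences in the levels of *Dlk1*, *Mest* and *Plagl1* was not tested.

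**Figure D3:**
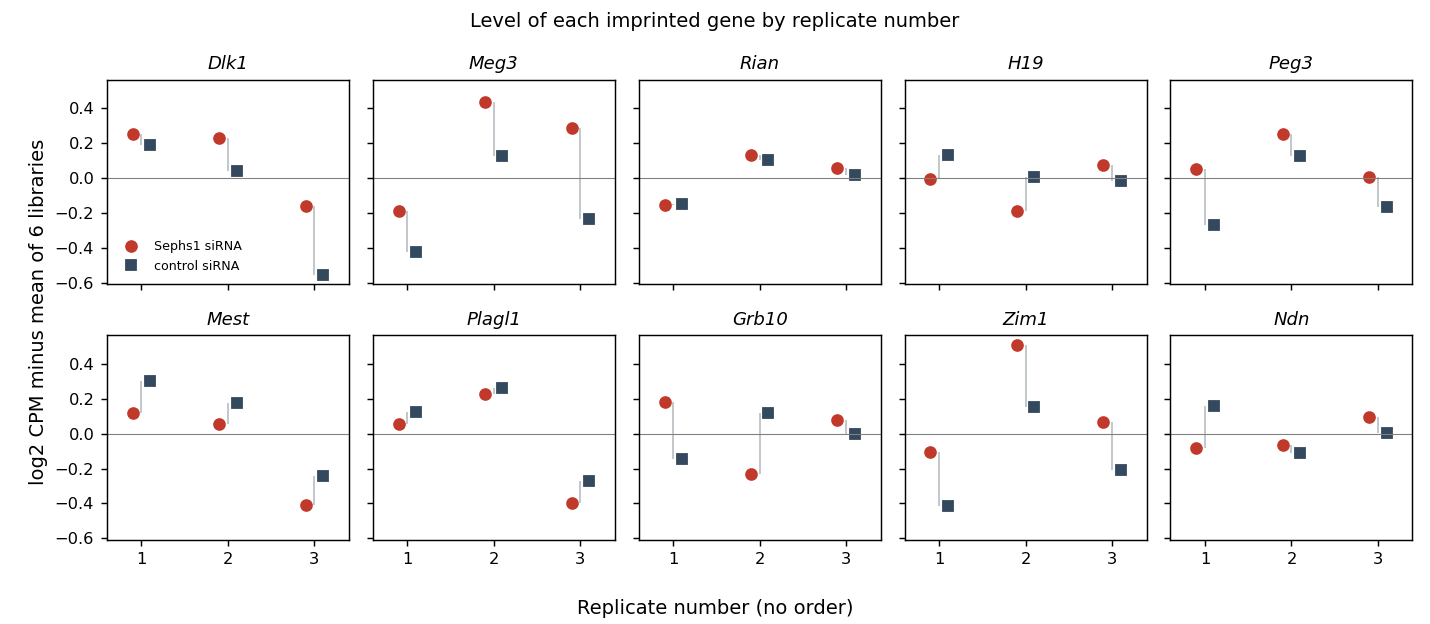
Log2 CPM minus the mean of the 6 libraries, by replicate number, for each imprinted gene, with *Sephs1* siRNA as red circles (left) and control siRNA as dark blue squares (right). *Dlk1*, *Mest* and *Plagl1* are lowest at number 3 in both groups, and *Meg3*, *Rian* and *Zim1* are lowest at number 1 and highest at number 2 in both.

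A wider list of imprinted genes was read beside the members. Of 63 other imprinted genes listed, 19 of them neighbours of the members, 52 were measured. By an unadjusted p of 0.05 in edgeR 3 were higher and 1 was lower (4 of 52, against 8.62% of all genes), and 0 passed after adjustment, while DESeq2 called 1 (*Dio3*). With the replicate block 11 were higher and 3 lower at an unadjusted p (14 of 52, against 24.3% of all genes), and 1 was called (*Dcn*). Both shares are near those of all genes. The median log2 fold change of the 52 was 0.06, with 32 above 0 and 20 below. The other genes below an unadjusted p of 0.05 were *Kcnq1ot1*, the non-coding RNA of the *Kcnq1* cluster, at 0.64 ± 0.25 (log2 fold change and SE), *Ppp1r9a*, a regulator of protein phosphatase, at 0.47 ± 0.19, and *Commd1*, a copper handling factor, at -0.20 ± 0.08. Their adjusted p in edgeR was 0.560, 0.566 and 0.566.

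**Figure D4:**
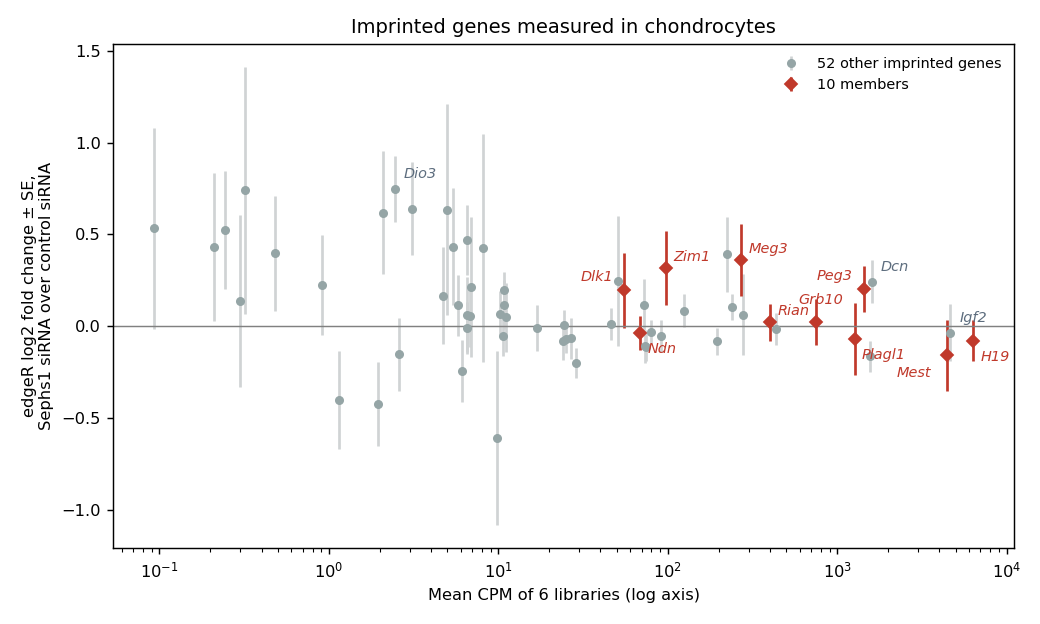
EdgeR log2 fold change ± SE, *Sephs1* siRNA over control siRNA, against the mean CPM of the 6 libraries on a log axis, for the 10 members (red diamonds) and 52 other imprinted genes (grey). The members lie between -0.16 (*Mest*) and 0.36 (*Meg3*), and *Dio3* lies at 0.75 with a mean of a few CPM.

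The factors that set or keep imprints gave no call. Of 14 listed genes for methylation of DNA and for protection of imprints (among them *Dnmt1*, *Uhrf1*, *Trim28*, *Zfp57* and the Tet genes), 13 were measured, 0 passed an unadjusted p of 0.05 in edgeR, and DESeq2 called 0. With the replicate block 2 were higher at an unadjusted p, against 24.3% of all genes, and none was called. Of 15 genes of the Notch pathway, listed since the *Dlk1* product resembles its ligands, 10 were measured. At an unadjusted p of 0.05 edgeR had 2 on the higher side and 1 on the lower, against 8.62% of all genes. Both edgeR and DESeq2 called 0 after adjustment. *Hes1*, a target of Notch receptors, had 15.3, 13.4 and 9.70 CPM with *Sephs1* siRNA, against 20.7, 18.97 and 15.4 CPM with control siRNA. Its log2 fold change was -0.52 ± 0.19 (SE), with an adjusted p of 0.530 in edgeR and 0.0443 with the replicate block. The receptors *Notch1* and *Notch2* were on the other side, at 0.32 ± 0.10 and 0.23 ± 0.09 on the log2 scale, with adjusted p of 0.470 and 0.571 in edgeR.

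Several of these genes overlap other transcripts: *Copg2* lies opposite *Mest*, *Airn* opposite *Igf2r*, and *Snurf* and *Snrpn* share a transcript. The library kit keeps strand, but the sources used here do not give the strand setting of the counting, so reads of such pairs may have been exchanged.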

How the data were processed

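RNA of primary articular chondrocytes was sequenced in 6 libraries, 3 with *Sephs1* siRNA and 3 with control siRNA, after poly-A selection with a stranded kit. Alignment to mm10 used HISAT2 2.1.0 and quantification StringTie 1.3.4d, per the methods and the submitters' processing notes. The deposited table holds the authors' raw read counts per gene and their FPKM values (length and depth scaled).

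The test on counts was that of edgeR 4.0.16 under R 4.3.3 (TMM scaling, quasi-likelihood test, Benjamini-Hochberg adjustment over 14223 genes with at least 1 read in every library). Levels between genes were compared in FPKM only. Read totals ran from 58214060 to 80887889. Same-numbered libraries deviated together from their group means (r = 0.47, 0.235 and 0.451 across genes, highest value across numbers -0.0265). Each group was centred on its own mean, so values across numbers must on balance be negative where same-numbered ones are positive. The value of -0.0265 is therefore not a separate result. A fit with the replicate number as a block stands beside the main fit, which has no block. The study's methods name the same zero-count filter and no block, but RLE scaling, the Wald test of DESeq2 and no adjustment of p, so edgeR with adjusted p is a choice made here. Alternatives were RLE size factors, other filters, DESeq2 1.42.0, limma 3.58.1 after a log2 transform of FPKM with a pseudocount of 1 or 0.1, and each library left out. The scripts were tested on simulated data.

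Named genes are the 10 members, *Sephs1*, *Igf2*, and genes of the listed pathways at an unadjusted p under 0.05 and a mean of at least 1 CPM (up to 3 per direction and list). *Dcn* was named after its values were seen, as the list's only call with the block, as were *Mirg*, *Begain*, *Mir410*, *Mir675*, *Col9a1*, *Col1a2* and *Postn*. Members and lists were chosen with earlier results of these data known. Promoter and miRNA sequences came from RefSeq on GRCm38.p6, the build of mm10, with 9 of 10 members matched. *H19* had no window in that table.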

Additional observations from a re-analysis of the deposited data

How the results depend on the processing

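The 10 members had 160 log2 fold changes under the alternatives: 141 kept their direction and side of the threshold, 6 kept their direction and passed it, and 13 reversed. The genes called were 2 in the main test, 234 with the replicate block, 215 in DESeq2, 0 and 1 in limma with pseudocounts of 1 and 0.1, and 0 to 3 with 1 library left out. With the block and a replicate number left out (chosen after seeing the data) they were 23, 87 and 1195 for numbers 1, 2 and 3. Members called were 1 with the block and 5 with the block without number 3. Members at an unadjusted p of 0.05 were 6 with the block, 0 to 3 with 1 library left out (3 without control siRNA replicate 2, 1 without *Sephs1* siRNA replicate 1), and 5, 6 and 5 with the block without numbers 1, 2 and 3. Of the wider imprinted list, the block called 1, DESeq2 1 and the block without number 3 called 5. At an unadjusted p that list gave 4 in the main test, 14 with the block, and 8, 11 and 13 with the block without numbers 1, 2 and 3. With 1 library left out it gave 1 to 5 (1 without *Sephs1* siRNA replicate 2 or control siRNA replicate 1). Of all genes 8.62% passed an unadjusted p in the main test and 24.3% with the block. That share was not counted for fits with a library or a number left out, so the member and list counts of those fits have no background here.

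Reversals were confined to members and a neighbour with values near 0. With 1 library left out, log2 fold changes ran from -0.0570 to 0.0847 for *Rian*, -0.210 to 0.0884 for *Plagl1*, -0.0776 to 0.136 for *Grb10*, -0.109 to 0.0272 for *Ndn* and -0.140 to 0.112 for *Igf2*. *Grb10* was -0.150 and -0.0102 with the block without number 1 and without number 3. *Ndn* was 0.0222 and 0.0227 in limma and 0.0543 with the block without number 1. *Igf2* was 0.0164 and 0.0165 in limma, and 0.0190 and 0.0022 with the block without numbers 1 and 2. Among the genes named with values, the replicate block changed the call of *Sephs1*, *Zim1*, *Dcn*, *Hes1*, *Irs2*, *Col9a1*, *Col1a2* and *Postn* and no other. Members higher in FPKM numbered 7, against 6 in CPM. The median log2 fold change of all genes was 0.041 and 0.062 in limma on FPKM with pseudocounts of 1 and 0.1. In the main test on counts it was 0.009. The cause of these changes was not tested. The lowest read count of a member was 2763.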
